A study of Oryzias latipes with 18 samples.

Results

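Of the 149539 accessible elements in the deposited list of medaka embryogenesis, 5259 (3.52%) lay on sequences other than the chromosomes 1 to 24, and these are described here. They were chosen by the sequence name alone, so none of their measured values entered the choice. They covered 1565 kb, 3.48% of the bases in all elements, and were spread over 457 sequences, of which 455 carried a scaffold name of digits and an F and held 5256 elements. The other two were named 1392, with 2 elements, and EGFP, with 1 element. No element lay on a sequence named as mitochondrial, and what the scaffold sequences contain was not examined. The list was made by ATAC-seq, in which the transposase Tn5 inserts sequencing adapters into DNA not covered by nucleosomes, from whole dechorionated and deyolked embryos of *Oryzias latipes*. Stages 11, 15, 19, 25, 29, 32, 36, 38 and 40 were sampled, with 2 libraries each and 18 in all. All embryos were a cross of d-rR-Tg(olvas-GFP) with Qurt, and no treatment or mutant was compared. The cells of a whole embryo are pooled, so an element open in a few cells and one weakly open in all cells cannot be told apart. The libraries were pooled in the list, which gives no value per stage or replicate, so stages could not be compared, no element has a replicate error, and the depth of each library is unknown.

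A scaffold is a stretch of assembled genome. Scaffolds that could not be assigned to a chromosome stay unplaced, and in vertebrate assemblies they are known to be rich in repeated sequences and in recently duplicated genes, which are hard to order. An accessible element is a place where regulatory proteins can reach the DNA, such as the promoter at a transcription start site (TSS) or an enhancer away from genes. Each element of the list has a score, taken to be the −log10 q of the peak caller, and a whole number, taken to count the stage-level peaks that were joined in it. An element called once at each of the 9 stages would thus have 9 peaks. A number above 9 needs at least 1 stage with several peaks inside the element, and fewer peaks may stand for fewer stages. With the scaffolds set against the 24 chromosomes, the range over the chromosomes served as the measure of spread, because no replicate values were given. Intervals are 95% intervals and cover counting error only, and elements of one scaffold share their neighborhood and are not independent. No test was run.

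The elements were unevenly spread over the scaffolds. A scaffold held a median of 4 elements, with quartiles of 2 and 12, and 84 scaffolds (18.4%) held a single one. Scaffolds with at least 10 elements numbered 142 and held 4188 elements (79.6%), and the 19 scaffolds with at least 50 held 1663 (31.6%). By comparison a chromosome held 3675 to 7395 elements. The 10 fullest scaffolds held 1076 elements, 20.5% of those on scaffolds.

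**Figure D1:**
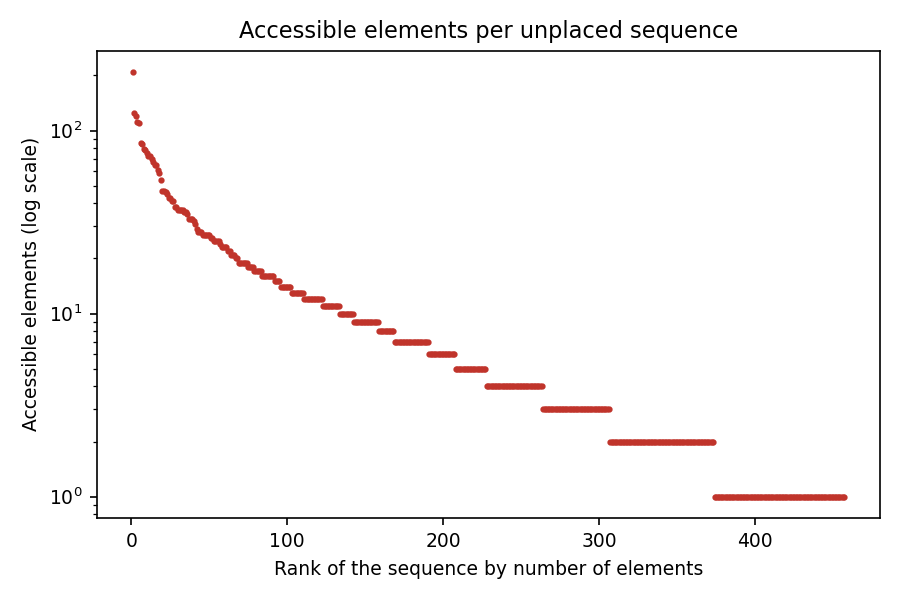
Number of accessible elements (log scale) on each of the 457 unplaced sequences, ordered from the fullest to the emptiest, with 1 point per sequence. The numbers run from 209 to 1, and the last 84 points are sequences with a single element.

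The fullest, 000281F, carried 209 elements between positions 11119 and 1138568, a span of 1127 kb. Their median score was 27.7 and their highest 479. 000528F followed with 124 elements in 377 kb, the highest density of the 10 fullest at 32.9 elements per 100 kb, and with the highest median score among them, 37.9. 000399F had 120 elements in 666 kb, 000099F had 112 in 625 kb and 000450F had 110 in 525 kb, at 17.9 to 20.9 elements per 100 kb. These 5 scaffolds thus resembled each other in density except for 000528F.

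The next 5 were smaller. 000512F had 85 elements with the largest median width of the 10, 355 bp. Of these 85, only 2 had 9 or more peaks, where 15.0% of all scaffold elements and 12.5% of the list did. 000316F had 84 elements in 916 kb, the sparsest of the 10 at 9.17 elements per 100 kb, and carried 7 genes for zinc finger TFs. 000476F, with 79 elements, and 000593F, with 78, held the elements with scores of 1262 and 767 that are among those described below. 000488F had 75 elements, with scores of 8.83 to 519. Over the 227 scaffolds with at least 5 elements, the density had a median of 18.3 elements per 100 kb between the first and the last element, and ran from 3.91 to 223. Lengths of the scaffolds were not used, so these spans are lower bounds.

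Elements on scaffolds were narrower than those on any chromosome. Their median width was 209 bp (204 to 214), against 245 bp on chromosome 8 to 265 bp on chromosome 23. Elements narrower than 150 bp numbered 1585 (30.1%, 28.9 to 31.4), against 13.8 to 17.3% on the chromosomes. Among elements with a score of at least 20 the median width was 243 bp on scaffolds, against 281 to 306 bp. With the elements under 150 bp left out, a filter on width itself, it was 279 bp, against 277 to 296 bp. At the other end, 130 elements (2.47%, 2.09 to 2.93) on 93 scaffolds were at least 1 kb wide, against 0.353 to 0.648% on the chromosomes. Narrow and wide elements thus both made up larger shares on scaffolds, where widths ran from 72 to 4333 bp.

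The wide elements had a median score of 28.2, from 11.0 to 553, beside 24.3 for all scaffold elements and 30.8 for the whole list. Of the 130, 3 were in the top 1% of scores, which held 1.22% of scaffold elements and 1.00% of the list. Of the 130, 73 had been merged from 10 or more peaks, where 3.16% of scaffold elements and 2.32% of the list were. The widest, 4333 bp from 248838 to 253170 of 000281F, had a score of 90.6 and 20 peaks. The second, 4018 bp from 736 to 4753 of 001124F, had a score of 37.2 and the most peaks on any scaffold, 26. Elements of 3791 bp on 001052F, 3222 bp on 001183F and 3186 bp on 001192F followed, with 18, 12 and 9 peaks and scores of 22.3, 41.3 and 17.9. The other elements with many peaks were narrower. An element of 2183 bp on 001238F had 21 peaks and a score of 268, one of 1019 bp on 000528F had 21 peaks and a score of 76.8, and one of 1413 bp on 001001F had 19 peaks and a score of 45.3.

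Scores on scaffolds were lower in the middle of the distribution and higher at its top. The median score was 24.3 (23.8 to 25.4), against 28.6 on chromosome 18 to 32.8 on chromosome 9. The lower quartile was 14.4, against 15.8 to 17.4, and the upper quartile was 50.5, against 61.3 to 72.8, so that at each quartile the scaffolds lay below all 24 chromosomes. The lowest score on a scaffold was 7.14, beside 7.05 in the whole list and the minimum of 7 set by the authors. The 5 lowest, of 7.14 to 7.16, belonged to single-peak elements of 83 to 204 bp on 000666F, 000742F, 000795F, 000628F and 000437F.

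The top of the scores was different. Scores of 437 or more made up the top 1% of the list (1.00% of all elements), and 64 scaffold elements (1.22%, 0.954 to 1.55) had one, inside the range of 0.636 to 1.48% over the chromosomes. With the threshold set anew, the share was above the chromosomes among elements with a score of at least 20, at 1.61% (against 0.526 to 1.43%). It was also above them among elements of at least 150 bp, at 1.55% (against 0.597 to 1.475%). Of the 64 elements, 12 lay on the scaffold 001200F and 6 on 001248F, both described below. The shares under these filters were not computed without that pair, so how far they rest on it is unknown. Scores of 690.7 or more made up the top 0.1% (0.100% of all elements, 150 in number), and 31 scaffold elements had one. They were 0.589% of the scaffold elements (0.416 to 0.835), against 0 to 0.178% on the chromosomes, and 20.7% of the 150. The 19 highest scores of the whole list were all on scaffolds, because the highest score on a chromosome was 987, for an element on chromosome 8.

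**Figure D2:**
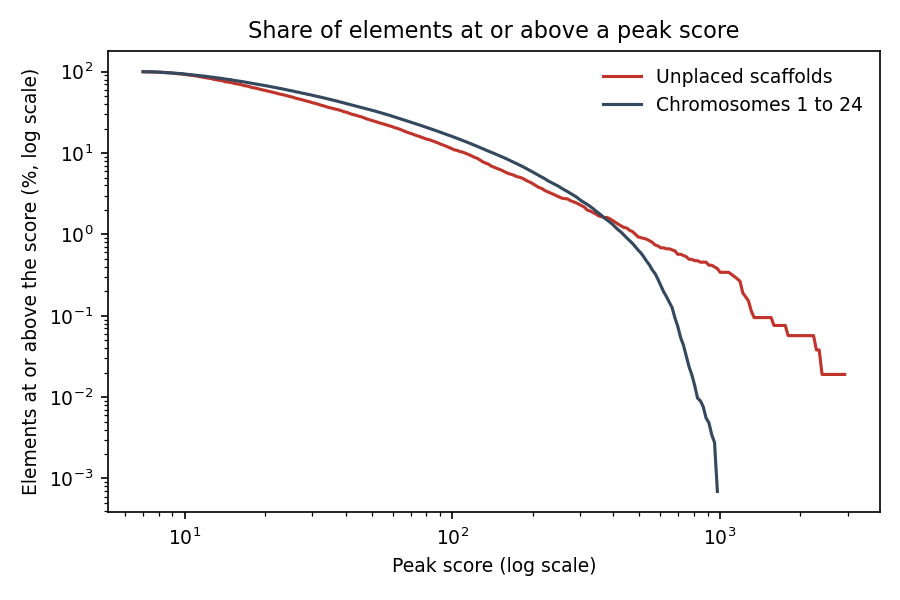
Percentage of elements (log scale) at or above a given peak score (log scale) on unplaced scaffolds and on the chromosomes 1 to 24. The line of the scaffolds is below that of the chromosomes at a score of 50 and above it at 690.7, where it stands at 0.589%, and it runs on to 2972, whereas that of the chromosomes ends at 987.

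The 31 elements lay on 16 scaffolds, and 17 of them on 2 short ones, 001248F and 001200F. On 001248F the 7 elements lay within 5.79 kb and had scores of 2972, 897, 894, 1315, 1307, 2382 and 187 in order along the scaffold. All but the last were in the top 0.1%, and these 6 had 9 peaks each, whereas the last had 7. The first, from 12 to 312, had the highest score of the whole list, and the sixth, from 4747 to 4921, the second highest. The elements were 84 to 327 bp wide with a median of 175 bp, and together they covered 23.4% of the stretch that they span.

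On 001200F the 16 elements lay within 12.5 kb, all with exactly 9 peaks. Their scores in order were 2242, 32.2, 1785, 1573, 999.7, 326, 1203, 205, 679, 1192, 282, 1101, 1292, 956, 839 and 1242. Of these, 11 were in the top 0.1%. The 5 weaker ones, from 32.2 to 679, lay between stronger ones and were 85 to 180 bp wide, whereas the stronger ones were 155 to 774 bp wide. Gaps between neighbors ranged from 89 to 1591 bp with a median of 242 bp, and the elements covered 36.5% of their stretch. None of the genes in the study's lists of TFs and lncRNAs lay on either scaffold.

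Dense elements did not always have high scores. Among the scaffolds with at least 5 elements the densest, 001155F, held 12 elements in 5.37 kb, 223 per 100 kb, which covered 46.7% of that stretch. Their scores were 18.5 to 54.5 with a median of 32.5, inside the range of the chromosome medians. Of the 12 elements 4 had 9 peaks, and 1 a single peak.

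The other 14 scaffolds with an element in the top 0.1% had 1 such element each. The highest were those on 000476F (1262, from 426435 to 427053, 619 bp wide), 001284F (1209, 152 bp), 000517F (1195, 161 bp), 001214F (1187, 212 bp), 001178F (1143, 150 bp) and 000826F (1131, 204 bp). Apart from the one on 000476F these were at most 212 bp wide. On 000517F, with 19 elements, the median score was 16.2. The closest listed gene to the element on 000476F, the lncRNA gene IGDB10433, lay 58.2 kb away, and the closest to that on 000517F, the zf-C2H2 gene IGDB10455, lay 278 kb away.

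Of the 31 elements 29 had exactly 9 peaks, where 11.9% of scaffold elements and 10.2% of the list did. The other 2, of scores 800 on 000689F and 767 on 000593F, had 14 and 17. Peak numbers of chromosome elements in the top 0.1% are not given here. On chromosomes too the median score was higher at 9 peaks (151) than at 1 (13.7). The median width of the 31 was 223 bp, and 16 of 31 were narrower than 250 bp. The 119 chromosome elements in the top 0.1% had a median width of 359 bp, and 9 of 119 were narrower than 250 bp. Of the 31, 23 were on scaffolds with no listed gene, where 51.5% of all scaffold elements were. Since 17 of these 23 lay on 001248F and 001200F, the count rests largely on that pair. Only 2 of the 31 were at the TSS or in the body of a listed gene. Such places were also rare among all 5259 scaffold elements, with 121 at a TSS and 270 in a body. Without 001248F and 001200F the share in the top 0.1% was 0.286%, nearer to the highest of the chromosomes, 0.196%, with the threshold set anew. No interval was computed for this share, so its distance from that chromosome is uncertain. The share in the top 1% was then 0.917%.

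Among the 227 scaffolds with at least 5 elements the median score ranged from 9.88 to 1307, with a median over scaffolds of 24.1. Of these, 157 were below the lowest chromosome median and 47 above the highest. Medians over as few as 5 elements scatter widely by sampling alone, whereas a chromosome median rests on 3675 to 7395 elements. The counts therefore do not show that single scaffolds differ from the chromosomes. The highest after 001248F, at 1307, and 001200F, at 1050, were 001238F at 161, 000826F at 139, 000995F at 97.2 and 001087F at 88.8. On 001087F all 7 elements came from single peaks, so that the high scores there were each met in a single call, unlike the 9 peaks of 22 of the 23 elements on the first pair.

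**Figure D3:**
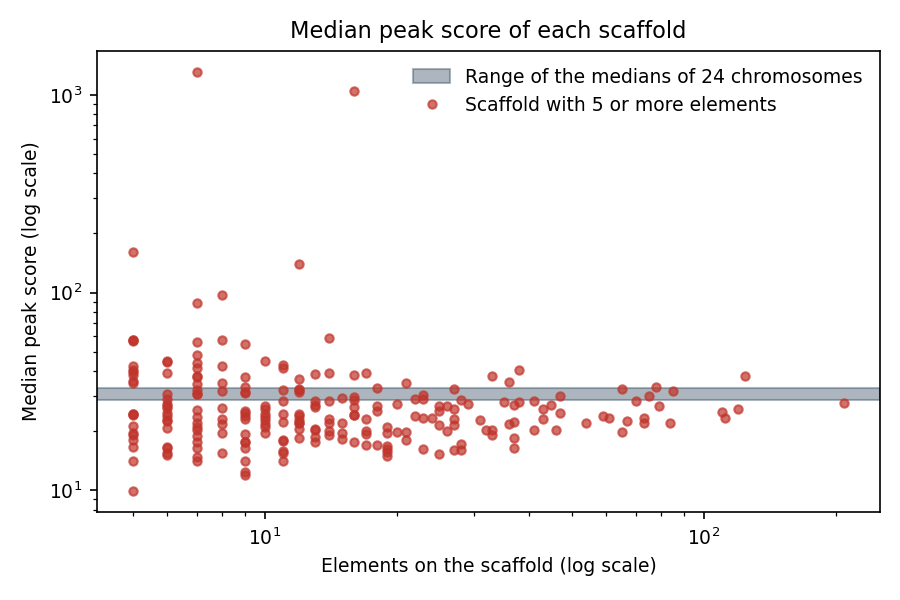
Median peak score (log scale) of each of the 227 scaffolds with at least 5 elements against its number of elements (log scale), with the band from 28.6 to 32.8 spanned by the medians of the 24 chromosomes. Of the scaffolds 157 lie below the band, 47 above it, and the topmost points are 001248F at 1307 and 001200F at 1050. Medians over few elements scatter widely by sampling alone.

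The number of merged peaks showed an excess at both ends on scaffolds, though a small one. Elements from a single peak numbered 1583 (30.1%, 28.9 to 31.4), with 27.7% over the whole list and 26.6 to 28.8% over the chromosomes. Elements from 9 or more peaks numbered 791 (15.0%, 14.1 to 16.0), with 12.5% over the whole list and 9.90% on chromosome 2 to 15.1% on chromosome 8. This was above 23 of the 24 chromosomes but inside their range. Elements from 10 or more peaks numbered 166 (3.16%, 2.72 to 3.66), against 1.68 to 2.84%. The share from a single peak lay inside the range of the chromosomes once elements under 150 bp or with a score under 20 were left out. The share from 9 or more peaks was then above all 24 chromosomes, at 19.0% (against 11.5 to 17.5%) and 24.7% (against 15.0 to 22.0%).

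At every number of merged peaks the median score was lower on scaffolds than on the 24 chromosomes pooled. For single-peak elements it was 12.8 (12.7 to 13.2), against 13.1 to 13.99 over the chromosomes. The difference was wider at 9 peaks, where the median score was 90.2 (83.4 to 99.5), against 134 to 167, and at 10 or more it was 74.8 (61.1 to 91.8), against 125 to 177. The elements from 9 peaks therefore held both the highest scores of the list and a median below that of each chromosome. Their median width was 259 bp, against 286 to 312 bp. Only the elements from 10 or more peaks were wider on scaffolds, with a median of 910 bp (768 to 1030), against 636.5 to 720 bp.

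**Figure D4:**
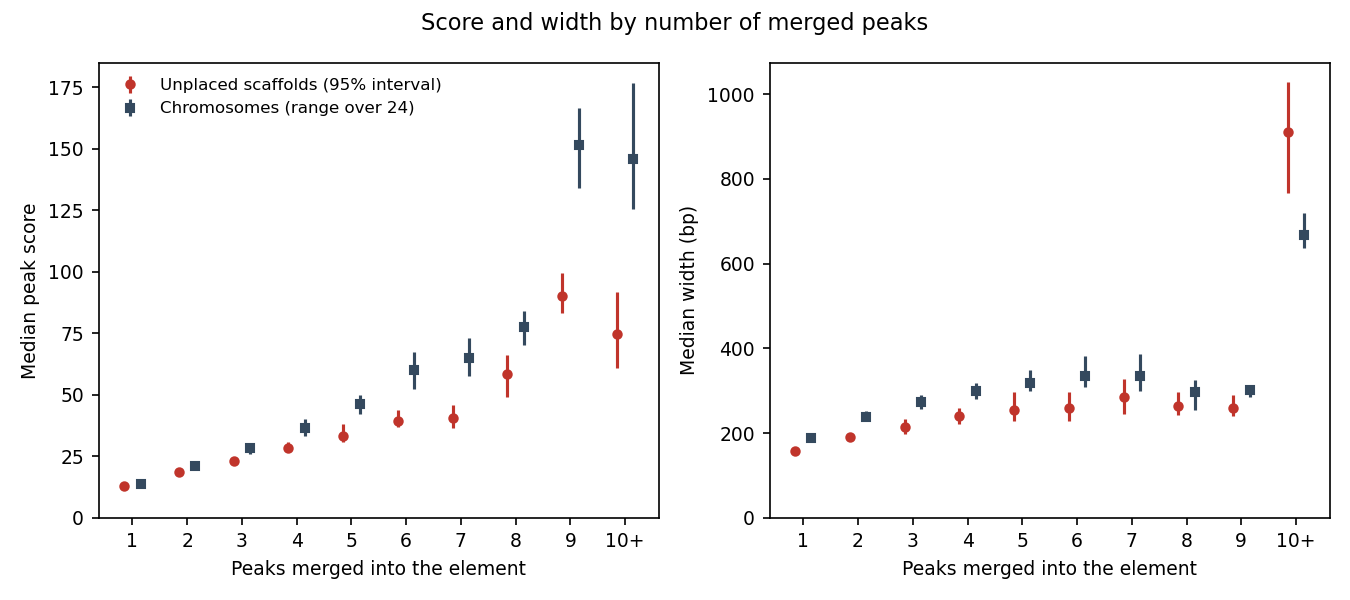
Median peak score (left) and median width in bp (right) by merged peaks per element, for unplaced scaffolds with 95% intervals and for the chromosomes with the range over 24. Scores on scaffolds are lower at each number, as at 9 peaks with 90.2 against 151 for the chromosomes pooled, and widths are lower except at 10 or more peaks, with 910 bp against 668 bp.

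The strongest single-peak element on a scaffold had a score of 298 and lay on 000631F, from 225154 to 225544. A single chromosome element from 1 peak scored higher, at 334. 000631F also held the fourth of these elements, with a score of 181, and those on 000939F, 001087F and 000575F had scores of 220, 184 and 173. None of the single-peak elements on scaffolds was in the top 1%. The same held on chromosomes, where the highest single-peak score, 334, was below the limit of 437. The element on 000575F, 510 bp wide, lay in the body of the zf-C2H2 gene IGDB10532.

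These measures also varied with how full a scaffold was. The median width was 141.5 bp (127 to 170) for the 84 elements alone on their scaffold, 187 bp on scaffolds with 2 to 9 elements, 200 bp with 10 to 49 and 240.0 bp (232 to 252) with 50 or more. The fullest scaffolds thus came near the lowest chromosome, 245 bp. The median score did not follow this order. It was 30.7 (24.3 to 35.9) for the elements alone on their scaffold, inside the range of the chromosomes, 23.9 on scaffolds with 2 to 9 elements and 23.7 with 10 to 49. On the fullest scaffolds it was 25.8 (24.4 to 28.0), below all chromosomes, and 13.2% of their elements had 9 or more peaks. The highest share with 9 or more peaks, 18.4% (16.1 to 21.0), was on scaffolds with 2 to 9 elements, where 12 elements (1.22%) were in the top 0.1%. Of these 12, 6 lay on 001248F, and without it the share was 0.612% (0.281 to 1.33). Distances between neighbors come only from scaffolds with at least 2 elements, and none can be longer than its scaffold, which limits the comparison with chromosomes. The median distance between neighboring elements was 3.23 kb (3.06 to 3.42), inside the range of 2.33 to 3.31 kb over the chromosomes and above 23 of them. Among elements with a score of at least 20 it was above all 24, at 5.43 kb (against 3.33 to 4.88 kb). With elements closer than 500 bp merged it was 4.85 kb (against 3.47 to 4.35 kb). With those under 150 bp left out it was 3.97 kb (against 2.91 to 3.96 kb).

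The sequences with other names, 1392 and EGFP, held 2 elements and 1 element. None of these was in the top 1% of scores, which held 1.00% of the list, so little can be read from so few. EGFP is the name of a green fluorescent protein used as a reporter, and the embryos descend from a line with a GFP transgene. The element on it, from 12 to 719, had a score of 32.0 and 8 peaks. It was 708 bp wide, but the length of the EGFP sequence was not used, so the part of it that the element covers is unknown. The elements on 1392, from 1095 to 1357 and from 5154 to 5325, had scores of 25.8 and 8.71, with 2 peaks and 1 peak.

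The genes on scaffolds were taken from the study's own lists of TF genes and lncRNA genes, which give their position, strand and, for TFs, family. TFs bind DNA through a domain that defines the family, and lncRNAs are long transcripts without a protein product. Of 1646 TF genes 114 (6.93%, 5.80 to 8.26) lay on 64 scaffolds, 63 of which had an element, and of 1135 lncRNA genes 80 (7.05%, 5.70 to 8.69) lay on 61. These shares were higher than that of the elements (3.52%). The gene IGDB10767 on 000816F is in both lists and is counted in both. The genes have only identifiers in these lists, with no symbols for scaffold genes in the annotation used here, so no function is given for a single gene.

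Most TF genes on scaffolds were zinc finger genes. The zf-C2H2 family, whose fingers each hold a zinc ion by a pair of cysteines and a pair of histidines, is the largest TF family of vertebrates and is known for tandem clusters of recent duplicates. It made up 100 of the 114 TF genes on scaffolds (87.7%, 80.4 to 92.5), against 478 of 1532 (31.2%, 28.9 to 33.6) on chromosomes. Of all 578 zf-C2H2 genes 17.3% (14.4 to 20.6) lay on scaffolds, against 1.31% (0.782 to 2.19) of the 1068 TF genes of other families. The 100 genes lay on 50 scaffolds, and 77 of them on the 27 scaffolds with 2 or more. 000316F carried 7, 000575F and 000624F carried 5 each, and 000408F and 000523F carried 4 each.

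The other 14 genes came from 10 families, of the 68 families in the list. HMG and bHLH had 3 genes each, 3 of 63 and 3 of 129. CUT, DM, ETS, Homeobox, MYB, Pou, TF_bZIP and zf-C2HC had 1 gene each, for example 1 of 227 Homeobox genes and 1 of 7 DM genes. With so few genes the shares of these families cannot be ranked.

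An element within 1 kb of the TSS was counted as at the TSS. On scaffolds 57 of 114 TF genes (50%, 41.0 to 59.0) had one, where 84.9% of all TF genes did. The families differed. Of the zf-C2H2 genes 44 of 100 (44.0%, 34.7 to 53.8) had an element at the TSS, against 389 of 478 on chromosomes (81.4%, 77.6 to 84.6), where the share over all zf-C2H2 genes was 74.9%. The difference was −37.4 percentage points (−47.3 to −26.9). Of the TF genes of other families 13 of 14 had one (92.9%, 68.5 to 98.7), against 952 of 1054 (90.3%) on chromosomes and 90.4% in all.

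The low share of zf-C2H2 genes was not found on scaffolds alone. Chromosome 2 carried the most zf-C2H2 genes, 86, and 39 of these (45.3%, 35.3 to 55.8) had an element at the TSS. The difference of scaffolds from chromosome 2 was −1.35 points (−15.4 to 12.7). On the other 23 chromosomes 350 of 392 genes (89.3%, 85.8 to 92.0) had one, and the difference was −45.3 points (−55.0 to −34.9). The chromosome was chosen for its number of zf-C2H2 genes after first values had been seen. The genes were also split by whether another zf-C2H2 gene started nearby. With another zf-C2H2 TSS within 50 kb, 16 of 41 genes on scaffolds had an element (39.0%, 25.7 to 54.3), against 44.4% on chromosome 2 and 80.4% on the other chromosomes. With none, 28 of 59 on scaffolds did (47.5%, 35.3 to 60.0), against 46.9% and 92.9%. A neighbor past the end of a scaffold cannot be seen, so the scaffold genes with none may include some with an unseen neighbor. Only 50 of the 100 zf-C2H2 genes on scaffolds had the whole window between the outermost elements or genes.

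**Figure D5:**
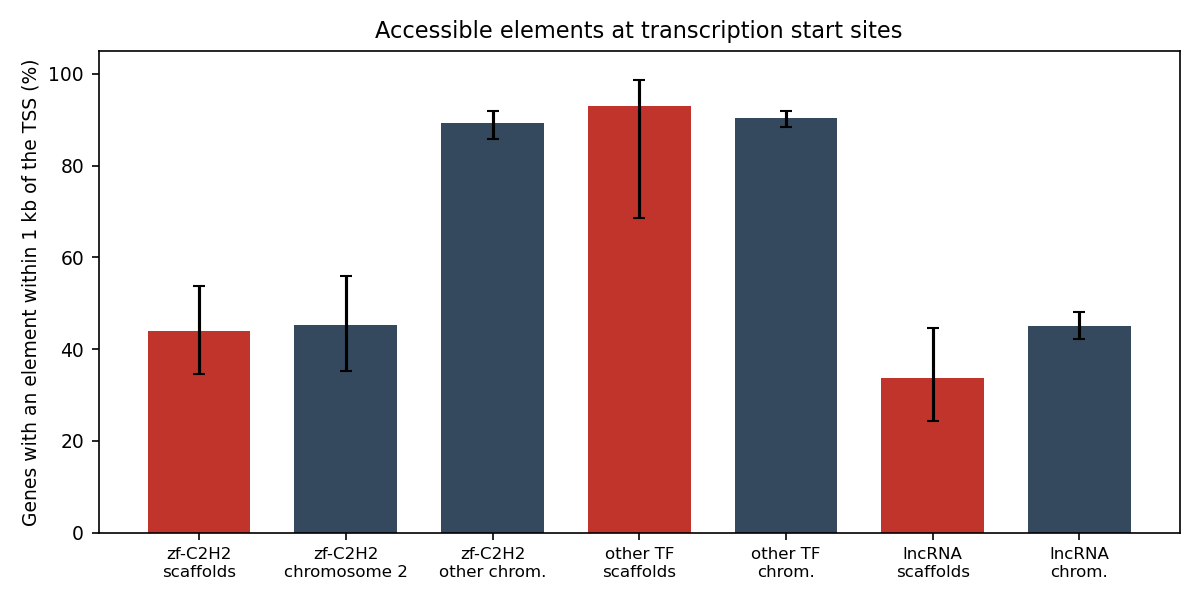
Percentage of genes with an accessible element within 1 kb of the TSS, for zf-C2H2 genes, other TF genes and lncRNA genes on scaffolds and on chromosomes, with 95% Wilson intervals. For zf-C2H2 genes the scaffolds (44.0%) and chromosome 2 (45.3%) stand below the other chromosomes (89.3%), and for other TF genes the bars stand at 92.9% and 90.3%.

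The elements at zf-C2H2 starts were also weaker and narrower on scaffolds than on the chromosomes pooled. Scaffold elements in general were lower in median score and width too, and values at these starts are not given for chromosome 2 alone. The 51 elements had a median score of 41.4 (28.4 to 55.5), against 66.4 (59.2 to 74.5) for 702 on chromosomes, and a median width of 169 bp (144 to 187), against 268.5 bp (256 to 289). Of the 51, 11 (21.6%, 12.5 to 34.6) had 9 or more peaks, against 40.2% (36.6 to 43.8) on chromosomes. At the 3′ end, 10 of 100 zf-C2H2 genes on scaffolds (10%, 5.52 to 17.4) had an element within 1 kb, against 34.5% on chromosomes and 30.3% over all. Here too chromosome 2 was low, with 6 of 86 (6.98%, 3.24 to 14.4), against 40.6% (35.8 to 45.5) on the other chromosomes.

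Among single zf-C2H2 genes IGDB10429, on the forward strand of 000476F from 284887 to 293853, had the highest score at the TSS. The element, from 284741 to 285448, overlapped the start and had a score of 458 and 10 peaks, and 17 elements lay within 50 kb. IGDB10476 on 000527F had the most elements within 50 kb of any zf-C2H2 gene on a scaffold, 27, and an element of score 49.9 and 5 peaks at its TSS. IGDB10341 on 000316F had 22 elements within 50 kb and a TSS element of score 252, IGDB10343 had 17 and a score of 107, and IGDB10342 had 16 and a score of 29.5. The models of these 3 genes on 000316F overlap each other, and their windows share elements. IGDB10790 on 000850F also had 16 elements within 50 kb, with a TSS element of score 228 and 12 peaks. The other 4 zf-C2H2 genes of 000316F had no element at the TSS.

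For the 13 genes of other families with an element at the TSS, the highest score there had a median of 148 (39.5 to 218), against 126 (113 to 140) on chromosomes. For the 44 zf-C2H2 genes with one it was 49.5 (28.4 to 64.9), against 119 (104 to 146) on chromosomes. Counted over elements, the 30 at starts of other families had a median score of 36.1 (21.0 to 106), against 64.7 (59.4 to 71.0) on chromosomes. By that measure the median of the other families was lower too, but its interval held that of the chromosomes, so no direction can be read. Of the 30, 46.7% (30.2 to 63.9) had 9 or more peaks, against 38.8% (36.5 to 41.1), and their median width was 297 bp, against 283 bp. The bZIP gene IGDB10818, of a family that dimerizes through a leucine zipper, lay on the reverse strand of 000919F from 10754 to 22856. The element at its start, from 22737 to 23080, had a score of 735 and 9 peaks and was the 86th highest of the whole list. It stood out on its scaffold, where the median of 9 elements was 12.4. The 3 HMG genes, whose box bends DNA, had TSS elements of score 247 for IGDB10660 on 000686F, 186 for IGDB10407 on 000450F and 153 for IGDB10748 on 000797F, with 9 or 10 peaks.

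The bHLH genes, whose family includes many regulators of cell fate, were less alike. IGDB10548 on 000576F had 4 elements at the TSS, the most of the 14 genes, with a highest score of 218, and 25 elements within 50 kb. IGDB10838 on 000985F had 3 with a highest score of 47.2, and IGDB10507 on 000542F had 2 with a highest score of 39.5. The ETS gene IGDB10568 on 000594F, of a family with a winged helix domain, had a TSS element of 739 bp with a score of 186 and 12 peaks. The zf-C2HC gene IGDB10361 on 000399F, whose finger differs from the C2H2 type by a cysteine in place of a histidine, had 3 elements at the TSS with a highest score of 148.

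The MYB gene IGDB10662 on 000689F, of a family with repeats of a helix-turn-helix fold, had the most elements within 50 kb of any TF gene on a scaffold, 28, among them one of score 800, but its 3 TSS elements reached only 76.0. The DM gene IGDB10294 on 000829F, of the family known for regulators of sex determination, had a TSS element of score 43.4 with 9 peaks and 5 elements within 50 kb. The CUT gene IGDB10682 on 000710F, of a family that joins cut domains to a homeodomain, had a TSS score of 21.0 beside 24 elements within 50 kb. The Homeobox gene IGDB10332 on 000281F, of the family known for body patterning, had a single TSS element of score 12.8 and 3 peaks beside 27 elements within 50 kb. The Pou gene IGDB10836 on 000982F, of a family with a bipartite DNA-binding domain, was the one gene of the 14 with no element at the TSS, and 3 elements lay within 50 kb of it.

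The surroundings of TF genes held fewer elements on scaffolds. Within 50 kb of the TSS there was a median of 7 elements (6 to 8), from 0 to 28, for the 114 TF genes, against 26 (25 to 26) for TF genes on chromosomes. A window can run past the end of a scaffold. For the 56 genes whose window lay between the outermost elements or genes of their scaffold the median was 9 (6 to 11), against 26 on chromosomes. For zf-C2H2 genes the median was 6.5 (6 to 7), against 22 on chromosomes and 5 on chromosome 2. With the windows inside the outermost features it was 8 (6 to 10) for 50 zf-C2H2 genes on scaffolds. For the other families it was 16.5 (9 to 25), against 27 (26 to 28). For the 6 of these genes with such inside windows it was 22 (17 to 27), and the interval then reached the 27 of the chromosomes. The highest score within 50 kb had a median of 91.8 (68.5 to 121) for TF genes on scaffolds, against 317 (302 to 329). For the 56 TF genes with windows inside the outermost features it was 118 (82.8 to 173), against 316 (302 to 328).

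Of the lncRNA genes on scaffolds 27 of 80 (33.8%, 24.3 to 44.6) had an element within 1 kb of the TSS, against 476 of 1055 on chromosomes (45.1%, 42.1 to 48.1), where 44.3% of all did. The difference of −11.4 points (−21.2 to −0.0749) was small and depended on the limit. When the element had to overlap the TSS itself, the share was 17.5% on scaffolds, against 14.0%, so that the direction turned. The 40 elements at these starts had a median score of 60.7 (33.9 to 118), against 41.1 (37.4 to 48.0) on chromosomes, and 17 of them (42.5%, 28.5 to 57.8) had 9 or more peaks, against 22.1% (19.2 to 25.4). At the 3′ end 29 of 80 (36.3%, 26.6 to 47.2) had an element, against 50.5% on chromosomes and 49.5% in all.

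The strongest lncRNA start was that of IGDB10789, on the forward strand of 000846F from 2366 to 3176. The element from 2545 to 2700, of 156 bp, had a score of 975 and 9 peaks and was the 22nd highest of the list. IGDB10564 on 000593F had the most elements within 50 kb, 35, with a TSS element of score 397. IGDB10462 on 000520F and IGDB10610 on 000637F had 29 each, with TSS scores of 351 and 144. IGDB10758 and IGDB10759 on 000807F overlap on opposite strands, so that their windows nearly coincide, and had 27 elements each, with TSS scores of 107 and 21.3. At the other end, 10 of the 80 lncRNA genes on scaffolds (12.5%, 6.93 to 21.5) had no element within 50 kb, against 8 of 1055 (0.758%) on chromosomes. Of the 10 genes 9 lay on 6 scaffolds without any element. The median number within 50 kb was 8 (6 to 9), against 23 (22 to 24) on chromosomes. These windows too can run past the end of a scaffold. For the 25 genes with windows inside the outermost features the median was 9 (8 to 11), against 23 (22 to 24), and 1 of the 25 had no element.

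Most of the scaffold elements had no listed gene to be placed by. Of the 5259 elements 2710 (51.5%) lay on 363 sequences without a TF or lncRNA gene from the lists. Elements at the TSS of a listed gene numbered 121, with a median score of 42.2 (32.7 to 56.7), and 34.7% of them had 9 or more peaks. The 270 elements in the body of a listed gene had a median score of 21.8 (18.9 to 25.2), and 9.26% had 9 or more peaks. For the 2158 outside listed genes the median was 23.7, and for those on sequences without a listed gene it was 24.6 (23.9 to 25.8), with 17.3% from 9 or more peaks. Other protein-coding genes on scaffolds were not used, so elements near them are counted as outside.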

How the data were processed

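Per the labels and methods, trimming used Trimmomatic 0.36, alignment to the medaka reference genome Bowtie2 2.3.4.1, and peak calling MACS2 2.1.2. The authors merged the replicates of a stage, filtered peaks at a −log q over 7 and joined the peaks of all stages. How reads mapping to several places were treated, and how the score of a merged element was made, is not given in the sources used here. The deposited list gives positions in bp (printed 1-based), a score, read as −log10 of the q value, and a count of merged peaks, read from its whole values of 1 to 29.

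Genes came from the study's TF and lncRNA lists. Their chromosome coordinates match the assembly ASM223467v1, as 57.4% of 1532 TF genes share an end within 50 bp with a RefSeq gene, against 1.31% after a shift of 50 kb. The build is not given in the sources used here, and no scaffold sequence or annotation was used here.

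Shares have Wilson intervals, differences Newcombe intervals and medians binomial order-statistic intervals (95%, counting error only). Python 3.11.15, NumPy 2.4.6, SciPy 1.17.1, pandas 2.3.3 and Matplotlib 3.10.9 were used, and placement was tested on simulated data. Named were the 10 fullest scaffolds, the elements extreme in score (10 highest, 5 lowest), width, peaks or single-peak score (5 each), all TF genes outside zf-C2H2, the 5 zf-C2H2 and 5 lncRNA genes with the most elements within 50 kb (with 1 tied gene), and the one of each with the highest TSS score. Scaffolds singled out for density, median score or top 0.1% elements, and the other sequences, were added after their values were seen. Members, lists and alternatives were chosen with earlier results of these data known. Alternatives changed the score and width minimum, merging, the scaffolds used, the TSS limit and the window.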

Additional observations from a re-analysis of the deposited data

How the results depend on the processing

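Of 79 alternatives, 46 left the value within its interval or 1.5 times the main value, 32 moved it and 1 turned its direction. Of the 61 with a chromosome value, 49 stayed on the same side of the chromosomes and 12 did not. No paired analysis was possible because all libraries are pooled in the list.

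With scores of at least 20 (3100 elements), the median width was 243 bp, the median score 43.1, the share from a single peak 9.84%, from 9 or more peaks 24.7%, in the top 1% 1.61%, in the top 0.1% 0.935%, the spacing 5.43 kb, and the elements within 50 kb 4 for TF and 4 for lncRNA genes. With elements closer than 500 bp merged, the width was 238 bp, the score 26.3, the single-peak share 27.2%, the share from 9 or more peaks 19.4% and the spacing 4.85 kb. On scaffolds with at least 10 elements the width was 215 bp. With elements of at least 150 bp, the width was 279 bp, the score 29.0, the single-peak share 23.2%, the share from 9 or more peaks 19.0%, in the top 1% 1.55% and the spacing 3.97 kb. Without 001248F and 001200F, an alternative chosen after seeing the data, 0.917% were in the top 1% and 0.286% in the top 0.1%.

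When overlap with the TSS was required, the share was 29.0% for zf-C2H2 genes (chromosomes 62.3%) and 17.5% for lncRNA genes, whose difference turned to 3.47 points, against −25.3 points within 2 kb. Windows of 25 and 100 kb gave 4 and 12 elements for TF genes and 5 and 11 for lncRNA genes, and windows inside the outermost features 9 for TF genes. The causes were not tested. The depth of the libraries is unknown, so no limit of detection can be given.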
